A study of Mus musculus with 4 samples.

Results

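The 10 genes described here encode the contents of the cytotoxic granule or act on them: the granzymes Gzma, Gzmb, Gzmc, Gzmk and Gzmm, the pore former Prf1, and Srgn, Nkg7, Ctsw and Serpinb9. They were found by gene name among the non-control probes of a mouse expression array, where Srgn stands under its earlier symbol Prg1. They have 12 probes of the 41174 on the array, 2 each for Nkg7 and Serpinb9, and all 10 genes were among the 19154 genes tested. Murine CD8+ T cells made in culture were compared with CD8+ cells of the thymus, both of C57Bl/6 origin. The in vitro-derived cells came from 100000 sorted Lin-Sca1+CD117+ bone marrow cells of donors aged 6 to 8 weeks. They had grown for 35 days on OP9-DL1, a stromal line carrying Delta-like 1, a Notch ligand, with Flt3 ligand at 5 ng/ml, IL7 at 1 ng/ml and 20% serum. The thymic cells came from donors aged 4 to 5 weeks, and both kinds were sorted as CD8+ with high T cell receptor beta.

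Each kind gave 2 RNA preps, and every in vitro prep was hybridised once against every thymic prep on 4 two-colour arrays. In vitro-derived RNA carried Cy5 and thymic RNA Cy3 on all 4, so an effect of the dye, of donor age or of the culture itself cannot be told apart from where the cells came from. The labels name no separate animals, and the p-values therefore measure the spread between these preps. With so few preps, an exact permutation test of 1 gene has a smallest possible p of 0.333, so that calls rest on a variance shared over genes. RNA was measured in bulk, so fewer cells that express a gene and less RNA per cell cannot be told apart.

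Cytotoxic lymphocytes kill by releasing granules in which granzymes, a family of serine proteases, lie packed with perforin on the proteoglycan serglycin. Perforin opens pores in the target cell, granzymes enter and cleave proteins there, and serpins in the killer cell block granzymes that leak into its own cytosol. Most thymocytes hold few such granules, and naive CD8+ cells acquire most of them after activation.

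Among the 43379 non-control spots of an array, 66.5% to 70.9% were well above background in the in vitro-derived channel and 63.7% to 65.6% in the thymic one. The number of preps, 2 of each kind, limits the precision. Slide and scan were shared by all 4 arrays. The 7 CD8+ T cell markers looked up to check the sort (Cd8a, Cd8b1, Cd3d, Cd3e, Cd3g, Cd2 and Thy1) were all well above background and tested. For Cd8a, the CD8 alpha chain, the in vitro-derived level was 15.46 and 15.19 and the thymic level 16.07 and 16.09 on the log2 scale. Of these markers 1 was called higher and 5 lower with loess normalization, beside 26.7% and 25.4% of all genes. With median centring, which leaves out the dependence on intensity, 6 were higher and 0 lower, beside 11539 and 2177 of all 19154 genes. The median log2 difference of all tested genes was 0.03 with loess and 0.39 with median centring.

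Promoter sequences are shown for 4 members with unlike values in the comparison. Gzma was far higher in in vitro-derived cells, its neighbour Gzmk was lower, Gzmb differed between the in vitro preps and Nkg7 was far lower. Each sequence is the 250 bases before the annotated transcript start, from RefSeq on GRCm38.p6, 5′ to 3′ on the strand of the gene. Capitals mark matches to the Runx core TGTGGT, the AP-1 motif TGANTCA or the T-box motif GGTGTGA, searched on both strands.
Gzma: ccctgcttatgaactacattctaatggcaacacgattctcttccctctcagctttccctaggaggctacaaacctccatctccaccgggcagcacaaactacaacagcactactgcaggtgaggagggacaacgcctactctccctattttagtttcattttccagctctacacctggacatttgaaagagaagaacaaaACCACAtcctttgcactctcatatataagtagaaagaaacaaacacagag
Gzmk: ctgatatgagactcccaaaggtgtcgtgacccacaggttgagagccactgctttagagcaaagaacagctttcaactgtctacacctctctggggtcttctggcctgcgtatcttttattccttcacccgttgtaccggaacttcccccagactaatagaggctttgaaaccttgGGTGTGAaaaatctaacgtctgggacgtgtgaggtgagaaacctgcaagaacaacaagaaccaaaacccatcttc
Gzmb: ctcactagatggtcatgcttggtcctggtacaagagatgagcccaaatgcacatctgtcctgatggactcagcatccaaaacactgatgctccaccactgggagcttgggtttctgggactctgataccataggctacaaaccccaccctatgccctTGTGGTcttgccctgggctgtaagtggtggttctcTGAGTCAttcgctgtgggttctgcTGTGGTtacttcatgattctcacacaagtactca
Nkg7: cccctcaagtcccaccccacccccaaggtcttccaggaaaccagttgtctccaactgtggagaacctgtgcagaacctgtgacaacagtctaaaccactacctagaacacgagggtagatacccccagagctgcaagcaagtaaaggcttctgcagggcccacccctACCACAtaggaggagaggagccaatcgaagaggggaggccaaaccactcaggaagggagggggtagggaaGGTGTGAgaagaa

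The Gzma window is chr13:113100982-113101231 on the minus strand, and the Gzmk window chr13:113180966-113181215 on the same strand. The Gzmb window is chr14:56262335-56262584 on the minus strand, and that of Nkg7 is chr7:43436888-43437137 on the plus strand. Gzma held 1 Runx match, 50 to 45 bases before the start, and Gzmk held none but had a T-box match 75 to 69 bases before its start. Gzmb held 2 Runx matches, at 93 to 88 and 34 to 29 bases, with the AP-1 match between them. Nkg7 held a Runx match at 83 to 78 bases and a T-box match at 13 to 7 bases. Windows were found for 9 of the members (11 windows), and none for Ctsw, the member with the lowest log2 difference. A Runx match was present in 7 of the 11 windows, in 7 of the 9 genes, against 14.05% of all 32851 promoter windows of that length. A T-box match was present in 3 of the 11 windows and 3.333% of all windows, an AP-1 match in 1 and 6.749%. The short form of the cyclic AMP response element, TGACGT, was present in 3 of the 11 windows and 6.469% of all windows. The Ets motif AGGAAGT was present in 2 and 7.686%, and the CSL motif TGGGAA in 2 and 21.59%. None of these motifs overlap another kind in the 4 windows shown. These are matches of letters and not measured binding. Genes that rose and genes that fell both held Runx matches.

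The first comparison asked how the granule genes of in vitro-derived CD8+ cells stand against those of thymic cells. Gzma, Srgn and Serpinb9 were higher in in vitro-derived cells. Gzmc, Gzmk, Gzmm, Prf1, Nkg7 and Ctsw were lower, and Gzmb was not called. A gene was called where limma gave a Benjamini-Hochberg adjusted p under 0.05 over all tested genes. By this rule 3 members were called higher, against 26.7% of all tested genes, and 6 lower, against 25.4%. In either direction 9 of 10 members were called, against 52.1% of all genes. At least 2-fold differences were called higher for 2 members (6.21% of all genes) and lower for 3 (5.00%). The levels of the preps did not overlap between the kinds of cells for 9 of the 10 members, with Gzmb the exception, against 77.2% of all genes. Of these 3 lay higher in in vitro-derived cells (41.6% of all genes) and 6 lower (35.6%). Of the 12 probes taken singly 10 were called, against 52.2% of all tested probes. The median log2 difference of the members was -0.45, beside 0.03 for all tested genes. The counts above include Gzmc and Gzmk, which were well above background only in the thymic channel, where they were higher. Where both channels had to be well above background, 3 of 8 members were called higher and 4 lower. Of all 17340 genes under that rule, 4596 were called higher and 4615 lower.

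**Figure D1:**
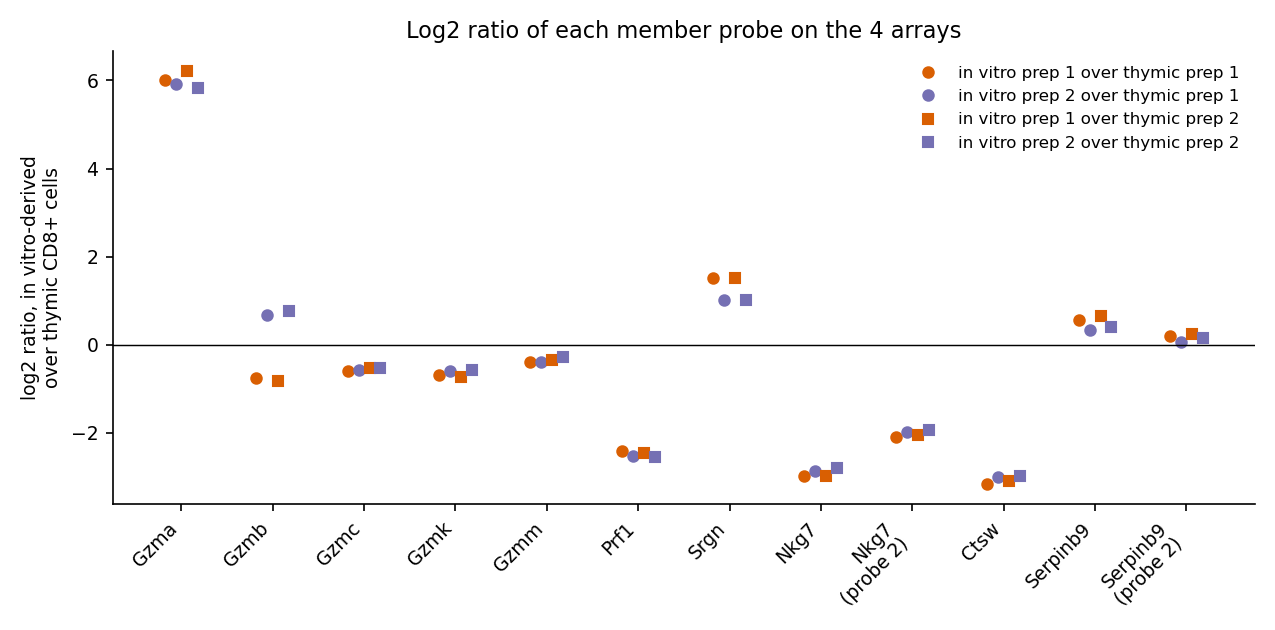
Log2 ratio of in vitro-derived over thymic CD8+ cells for each of the 12 member probes (points: the 4 arrays, colour for the in vitro prep and shape for the thymic prep). Gzma lies between 5.84 and 6.21 on all 4 arrays, while Gzmb is at -0.75 and -0.82 on the arrays of in vitro prep 1 and at 0.69 and 0.78 on those of prep 2.

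Among the granzymes, Gzma, a tryptase-like granzyme that cleaves after basic residues, had log2 ratios of 6.01, 5.93, 6.21 and 5.84 on arrays 1 to 4. Arrays 1 and 3 carried in vitro prep 1 and arrays 2 and 4 carried prep 2, and arrays 1 and 2 carried thymic prep 1. The normalized log2 intensity was 16.22 and 16.05 in the in vitro preps, against 10.16 and 10.12 in the thymic preps. Both in vitro preps were therefore far above both thymic preps, and the spread within a kind was small beside the gap. The log2 difference was 5.99 ± 0.09 (SE, n = 2 preps of each kind), or 63.7-fold, with a limma adjusted p of 1.8e-05, and it had rank 2 among the genes that were higher. With median centring the log2 difference was 6.83. The scanner's mean Cy5 signal before any correction was 113773 to 132965 on the 4 arrays and the Cy3 signal 599 to 682. Neither channel was saturated at this probe.

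Markers of another lineage stood beside this gene. All 4 tested gamma delta T cell markers were higher in in vitro-derived cells (26.7% of all genes), with a median log2 difference of 3.07. Their summed normalized intensity was 62312 and 66006 in the in vitro preps, against 2466 and 2459 in the thymic preps. Tcrg, from the gamma chain locus, alone had a log2 difference of 4.82, and Tcrg-C comes from the same locus. Of the 8 gamma delta markers looked up, Il23r was too dim to test. Tcrd, Trdc and Tcrg-V4 were not found on the array, so no delta chain gene is among the 4. Of 8 stromal markers 7 were higher, with sums of 10072 and 12491 in the in vitro preps against 1246 and 1191 in the thymic preps. Both kinds of cells had been sorted as CD8+ with high T cell receptor beta, and the purity of the sorts was not examined here. The part of gamma delta T cells and stromal cells in the value of Gzma was not tested.

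Gzmk, a further tryptase-like granzyme and the direct neighbour of Gzma on chromosome 13, had log2 ratios of -0.70, -0.58, -0.73 and -0.57 on arrays 1 to 4. Its in vitro levels were 5.98 and 5.96 and its thymic levels 6.60 and 6.63. All in vitro levels lay below all thymic ones, but in the in vitro-derived channel no array had the probe well above background, so only a bound can be given. Gzmk was at least 1.41-fold lower in in vitro-derived cells (log2 difference as measured -0.64 ± 0.07, limma adjusted p = 0.0014). Such bounds set the brighter kind of cell, array by array, against the lowest signal still well above background or against the dim probe's own signal where that was higher. They hold for one way of processing, come from channel values made comparable between arrays and are open to dye bias. The size depends on how the weak signal was treated: the log2 difference was -0.49 with the background model fitted on all spots and also with marked spots kept (adjusted p = 0.043 in both). It was -1.14 with a normexp offset of 16, -1.01 with median centring and -3.33 with the processed signals of the scanner software. Gzmk was called lower and its neighbour Gzma higher, but Gzmk entered the test only through the thymic channel, where it was higher. Its thymic signal was weak too, since the lowest signals still well above background there were 6.21 to 6.34. The 2 directions are therefore not set against each other here.

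Gzmc, a granzyme of the Gzmb cluster on chromosome 14, had log2 ratios of -0.59, -0.56, -0.53 and -0.52. Its levels were 6.22 in both in vitro preps, against 6.80 and 6.73 in the thymic preps. It too was well above background on none of the 4 arrays in the in vitro-derived channel, and on all 4 in the thymic one. Gzmc was at least 1.46-fold lower in in vitro-derived cells (-0.55 ± 0.06, limma adjusted p = 0.0012). The bound equals the measured fold here, because the probe's own signal was the higher of the signals compared. Its call was lost, at -0.44 with an adjusted p of 0.055, when the background model was fitted on all spots and also with marked spots kept, which is a smaller difference than that bound. The value was -0.90 with an offset of 16 and -2.02 with the processed signals.

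Gzmm, a granzyme that prefers to cut after methionine and long aliphatic residues, had log2 ratios of -0.40, -0.38, -0.34 and -0.27. Its levels were 7.70 and 7.68 in the in vitro preps and 8.09 and 8.00 in the thymic preps. The groups did not overlap and the difference was small, at -0.35 ± 0.06 or 1.27-fold lower (limma adjusted p = 0.0075). This call was lost with median centring (-0.02, adjusted p = 0.79), with the background model fitted on all spots or marked spots kept (-0.30 and adjusted p = 0.059 in both), without thymic prep 1 (-0.31, adjusted p = 0.12) and without thymic prep 2 (-0.39, adjusted p = 0.060).

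**Figure D2:**
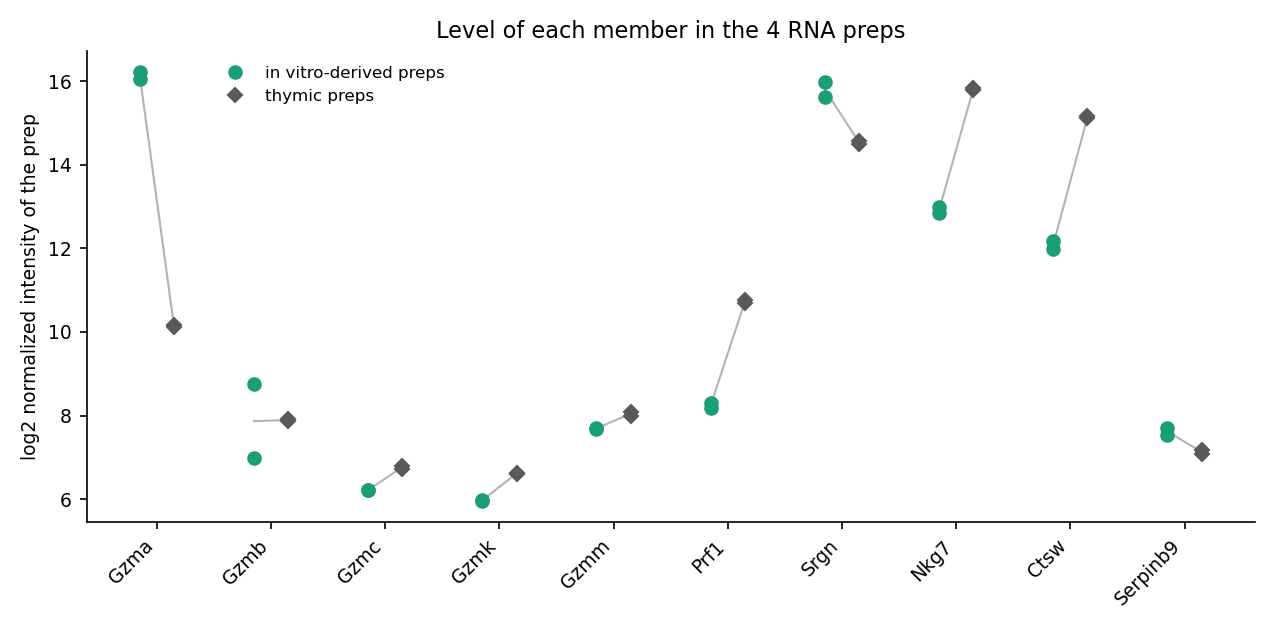
Log2 normalized intensity of each member in the 2 in vitro-derived preps (circles) and the 2 thymic preps (diamonds), with a line between the group means. Levels can be compared within a gene and not between genes. The preps of the 2 kinds overlap for Gzmb only, where the in vitro preps lie at 6.97 and 8.76 around thymic preps at 7.91 and 7.87.

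Gzmb, the granzyme that cleaves after aspartate and activates caspases in target cells, was the member whose in vitro preps disagreed. Its log2 ratio was 0.69 and 0.78 on the arrays of in vitro prep 2, against -0.75 and -0.82 on those of in vitro prep 1. Prep 2 lay above both thymic preps and prep 1 below both. The mean over all 4 arrays was therefore close to 0, at -0.03 ± 0.48 (SE, n = 2 preps of each kind, limma adjusted p = 0.97), and its large error comes from the in vitro preps. Against the mean of the thymic preps, prep 2 was 0.73 higher and prep 1 stood at -0.79, both on the log2 scale.

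Prep 2 exceeded prep 1 by 1.44 when each was measured against thymic prep 1 and by 1.60 against thymic prep 2, a mean of 1.52 on the log2 scale. The thymic preps differed by only -0.01. In the scanner's mean Cy5 signals, Gzmb stood at 641 and 580 for prep 2, against 166 and 167 for prep 1, over local backgrounds of 43.5 to 50, and its Cy3 signal was 130 to 165 on all 4 arrays. It was well above background in both channels on every array. The difference between the preps is a single pair of preps measured against the same thymic RNA, so it has no test. It was 1.83 with an offset of 16, 1.22 with the background model fitted on all spots, 1.73 with median centring and 2.24 with processed signals, always with prep 2 higher.

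Over all tested genes the difference between the in vitro preps had an SD of 0.20, against 0.11 for the thymic preps. A difference of at least 2-fold in the same direction against both thymic preps was seen for 1 of the 10 members, Gzmb, and for 0.151% of all tested genes (29 genes, 24 of them, or 0.125%, higher in prep 2). Between the thymic preps 0.0365% of genes met this rule. Only 6 genes, Gzmb among them, had a difference between the in vitro preps at least as large. The other members moved far less between the in vitro preps. Srgn was next at -0.50, lower in prep 2, followed by Serpinb9 at -0.24 and Gzma at -0.23, and the other 6 genes lay between -0.10 and 0.16.

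Natural killer cell markers were also higher in prep 2, to differing degrees. Of the 5 tested, only 1, Klrd1, met the rule of at least 2-fold against both thymic preps, as did 0.151% of all genes. Klrd1, which encodes the CD94 receptor chain, was 1.26 higher in prep 2 on the log2 scale. The values were 0.91 for Klrb1c, the NK1.1 receptor gene, 0.84 for the signalling chain gene Fcer1g, 0.54 for the adaptor gene Tyrobp and 0.23 for Klrc1. Their summed intensity was 4787 in prep 2 and 2317 in prep 1, while the thymic preps stood at 14462 and 15087, mostly through Klrd1. Of the 9 markers 5 were tested, and Ncr1, the most specific of them, was well above background on 0 of 4 arrays in both channels. Both preps came from the sort on CD8 and T cell receptor beta, whose purity was not examined here. The part of natural killer cells in the difference of Gzmb was not tested.

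**Figure D3:**
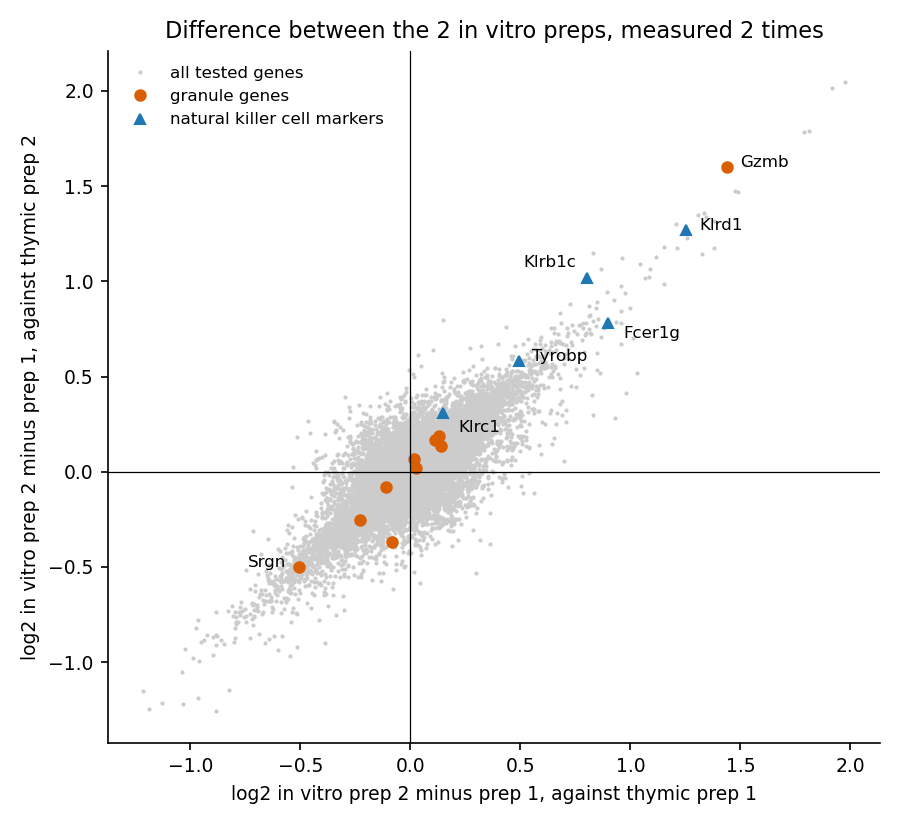
Log2 difference of in vitro prep 2 minus in vitro prep 1 for each tested gene (grey), measured against thymic prep 1 (horizontal axis) and thymic prep 2 (vertical axis), with the granule genes (circles) and natural killer cell markers (triangles) on top. Gzmb lies at 1.44 and 1.60, and no other granule gene is beyond 1 in either direction.

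The 5 tested genes whose 4 log2 ratios lay closest to those of Gzmb, by Euclidean distance over the 4 arrays, were Coro2a at a distance of 0.536, Klhdc2 at 0.715, Kit at 0.742, Drc1 at 0.805 and BC051230 at 0.813. Kit, the stem cell factor receptor of progenitors and mast cells, was 0.82 higher in in vitro prep 2 on the log2 scale. Its ratios were 0.26 and 0.27 on the arrays of prep 2 and -0.55 on both arrays of prep 1. These genes were picked by their likeness to Gzmb, so a higher value in prep 2 follows from the choice. The summed intensity of the 8 tested mast cell and myeloid markers, Kit among them, was 3204 in prep 1 and lower in prep 2, at 2833. This fall came through a single bright marker, Cpa3, and does not describe the list as a whole. The tested granzyme and chymase genes next to Gzmb on chromosome 14 did not share its pattern of values, but their signals were weak. Of 12 such genes 4 passed the intensity filter, and their prep 2 minus prep 1 differences were 0.12 for Gzmd, -0.10 for Cma1, -0.03 for Ctsg and -0.06 for Mcpt4. The normalized intensity of all 4 together was only 510 and 493 in the in vitro preps and 531 and 552 in the thymic preps. The limma fit called 0 of these 4 genes between the kinds of cells, 0 had an unadjusted p under 0.05, and their median log2 difference was -0.11. No other tool was run. The other 8, among them Gzme, Gzmf, Gzmg and Gzmn, were too dim to test.

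Prf1, the gene of perforin, which opens the pores that granzymes pass through, had log2 ratios of -2.41, -2.53, -2.46 and -2.54 on arrays 1 to 4. Its levels were 8.30 and 8.19 in the in vitro preps, against 10.70 and 10.76 in the thymic preps. The preps of each kind lay close together and the kinds did not overlap. Prf1 was 5.60-fold lower in in vitro-derived cells (-2.49 ± 0.06, limma adjusted p = 2.8e-05), and ranked 114 in size among the genes that were lower. It was well above background in both channels on all 4 arrays. In vitro-derived cells thus had far more Gzma RNA and far less Prf1 RNA than thymic cells, measured on the same 4 arrays.

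Srgn encodes serglycin, the proteoglycan core on which granzymes and perforin are packed. Its log2 ratios were 1.53, 1.02, 1.51 and 1.01, higher on both arrays of in vitro prep 1 than on both arrays of prep 2. The levels were 15.97 and 15.63 in the in vitro preps and 14.50 and 14.57 in the thymic preps, with no overlap. Srgn was higher in in vitro-derived cells by 2.41-fold (1.27 ± 0.17, limma adjusted p = 0.0027), and its log2 difference was 2.37 with median centring.

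Nkg7, a granule membrane protein needed for efficient release of granules, had log2 ratios of -2.98, -2.85, -2.98 and -2.79 on the brighter of its 2 probes. Its levels there were 12.84 and 12.99 in the in vitro preps, against 15.78 and 15.85 in the thymic preps. It was 7.47-fold lower in in vitro-derived cells (-2.90 ± 0.08, limma adjusted p = 2.9e-05). The other probe gave ratios of -2.10, -1.97, -2.05 and -1.93 and a 4.03-fold lower value (limma adjusted p over all probes 4.9e-05), so the probes had the same direction and differed in size. With median centring the log2 difference on the first probe was -1.91.

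Ctsw is a cysteine protease of the cathepsin family found in cytotoxic lymphocytes. Its log2 ratios were -3.15, -3.01, -3.10 and -2.97, and its levels were 11.98 and 12.18 in the in vitro preps against 15.16 and 15.12 in the thymic preps. It was 8.32-fold lower in in vitro-derived cells (-3.06 ± 0.07, limma adjusted p = 2.4e-05), at rank 44 among the genes that were lower. With median centring the log2 difference was -2.16. Prf1, Nkg7 and Ctsw were called lower under every alternative processing and in every fit that left out a prep or an array.

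Serpinb9, the serpin that inhibits granzyme B inside the killer cell, had log2 ratios of 0.57, 0.34, 0.66 and 0.40 on the brighter of its 2 probes. The levels were 7.71 and 7.53 in the in vitro preps and 7.17 and 7.08 in the thymic preps. The groups did not overlap, and the gene was higher in in vitro-derived cells by 1.41-fold (0.49 ± 0.10, limma adjusted p = 0.010). Its second probe gave 0.19, 0.07, 0.25 and 0.15, with a mean of 0.16 that was not called (limma adjusted p over all probes 0.11). The call on the first probe was lost without thymic prep 2 (0.46, adjusted p = 0.066), and the log2 difference was 0.87 with processed signals and 0.33 as a mean over both probes.

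**Figure D4:**
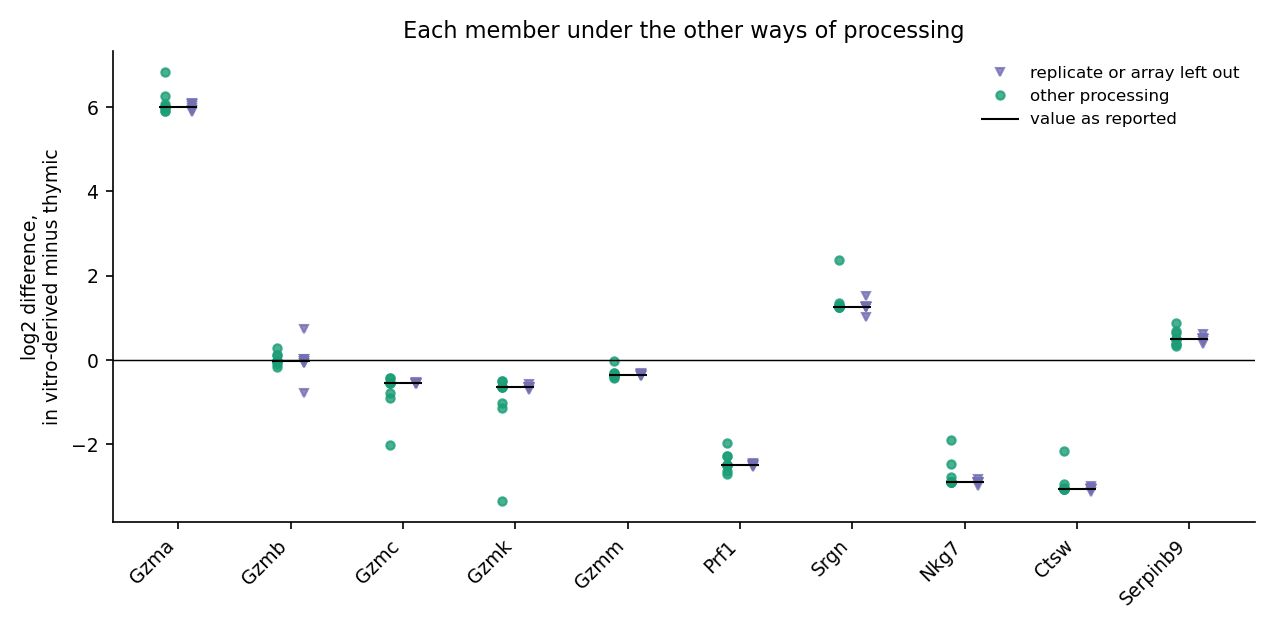
Log2 difference of in vitro-derived minus thymic cells for each member as reported (line), under other ways of processing (circles) and with a prep or an array left out (triangles). Gzma stays between 5.88 and 6.83 and Ctsw between -3.13 and -2.16, Gzmk reaches -3.33 with processed signals, and Gzmb is the member whose values fall on both sides of 0.

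Genes that mature granzymes and sort granule proteins moved in both directions. Of 14 such genes 4 were called higher and 6 lower with a median of -0.16, beside 26.7% and 25.4% of all genes. Median centring gave 9 higher and 2 lower with a median of 0.49, beside 11539 and 2177 of all 19154 genes. Ctsc, the dipeptidyl peptidase that removes the propeptide of granzymes, had levels of 11.31 and 11.76 in the in vitro preps and 12.35 and 12.39 in the thymic preps, a log2 difference of -0.83 ± 0.16 (limma adjusted p = 0.0094) that was not called with median centring (-0.12). Cst7, the cystatin that inhibits this enzyme, was at -1.16, and Igf2r, a mannose 6-phosphate receptor that carries granzymes to granules, at -1.10. Both were called lower under either normalization, at -0.54 and -0.32 with median centring. The lysosomal membrane genes Cd63 (1.50), Lamp2 (1.29) and Lamp1 (0.79) were higher under either.

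Genes of granule docking and release were also mixed. Of 14 genes 6 were called higher and 4 lower with a median of 0.14, beside 26.7% and 25.4% of all genes. Median centring gave 10 higher and 2 lower with a median of 0.76, beside 11539 and 2177 of all 19154 genes. Sytl2, an adaptor between Rab27a and the plasma membrane, had levels of 6.94 and 6.97 in the in vitro preps, against 8.54 and 8.65 in the thymic preps, a log2 difference of -1.64 ± 0.06 (limma adjusted p = 5.5e-05). Its relatives Sytl1 (1.14) and Sytl3 (0.82) were higher. Unc13d, a priming factor of granule fusion, was lower at -0.96, and -0.21 with median centring. Rab27a, the small GTPase of granule docking, was higher at 0.45, as was Vamp7 at 0.84. The second probe of Rab27a was at 0.16 and not called (limma adjusted p over all probes 0.068). The fusion genes Stx11 (-0.16) and Stxbp2 (-0.09) were not called.

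**Figure D5:**
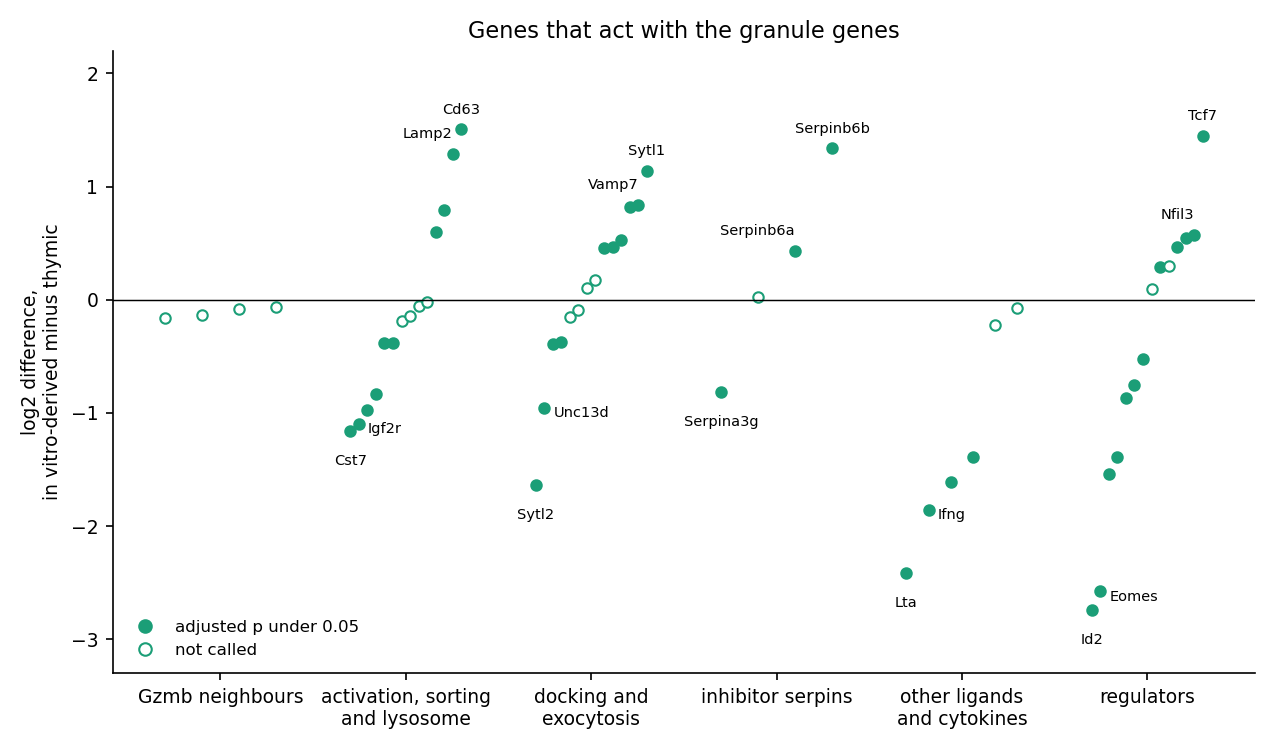
Log2 difference of in vitro-derived minus thymic cells for the tested genes of 6 lists around the granule (filled: limma adjusted p under 0.05, open: not called). The ligand and cytokine genes lie at or below -0.07, and the other lists, apart from the 4 neighbours of Gzmb, hold called genes on both sides of 0.

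Of the 4 tested serpins other than Serpinb9, 2 were called higher and 1 lower, with a median of 0.23. Over all genes these shares were 26.7% and 25.4%. Serpinb6b, the gene next to Serpinb9 on chromosome 13, was at 1.34, Serpinb6a at 0.43, Serpina3g at -0.81 and Serpinb1a, not called, at 0.03. The call of Serpinb6a was lost with the background model fitted on all spots, with marked spots kept and without either thymic prep.

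The other killing ligands and cytokines had no member that was higher. Of 6 genes 4 were called lower, with a median of -1.50, beside 25.4% of all genes. Median centring called 5 lower with a median of -0.67, beside 2177 of all 19154 genes. Lta, the gene of lymphotoxin alpha, had levels of 8.37 and 8.06 in the in vitro preps, against 10.61 and 10.65 in the thymic preps (-2.41 ± 0.11, limma adjusted p = 1.0e-04). Ifng, the gene of interferon gamma, was at -1.85, Ltb, the gene of lymphotoxin beta, at -1.61 and Tnf at -1.39. The Tnf call was lost with the background model fitted on all spots (-1.20). Fasl, the gene of the death ligand that acts beside the granule pathway, was at -0.07 and not called on its brighter probe, while its other probe was at -0.34.

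Known regulators of granule genes were called in both directions, 5 higher and 7 lower of 14 tested, with a median of -0.22. Over all genes 26.7% were called higher and 25.4% lower. Median centring gave 7 higher and 5 lower with a median of 0.49, beside 11539 and 2177 of all 19154 genes. Eomes, a T-box factor known to drive Prf1 in CD8+ T cells, had levels of 6.16 and 6.29 in the in vitro preps, against 8.70 and 8.92 in the thymic preps (-2.58 ± 0.09, limma adjusted p = 5.9e-05). Its probe was well above background on all 4 arrays in both channels, but its in vitro signal was weak, and the log2 difference was -2.09 with the background model fitted on all spots and -4.03 with processed signals. Id2, an inhibitor of E proteins that effector CD8+ cells need, was at -2.74 ± 0.08 (limma adjusted p = 3.6e-05). The repressor gene Bach2 was at -1.54, Foxo1 at -1.39 and Runx3, the Runx factor of the CD8 lineage, at -0.87, all of them lower with median centring too. Tbx21, which encodes T-bet, was at -0.75 and was not called with median centring (-0.30). Tcf7, the gene of the naive and early T cell factor TCF-1, was at 1.45 ± 0.13 (limma adjusted p = 0.00069). The lists were chosen with results of these data known, and their counts are a description.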

How the data were processed

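Two-colour Agilent arrays measured total RNA of 2 in vitro-derived and 2 thymic preps, with 1 ug labelled per prep per the labels' protocols. Per the file headers, the authors deposited linear spot intensity values from Feature Extraction 9.5.1.1. The authors also deposited a series table of log10 ratios of Cy5 over Cy3. It matched the scanner's own log10 ratio (correlation at least 0.9999 on each array, and at least 99.58% of values within 0.0001), so its scale and direction are known. The median of each column was 0, and the table was used as a check only.

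From the deposited intensity values, log2 ratios were computed here with limma 3.58.1 in R 4.3.3. Spots marked by the scanner software (133 to 187 per array) were left out first, a choice made after earlier results had been seen. Normexp (offset 50) corrected the background and loess normalized each array. Levels are channel values after loess and Aquantile normalization, so their differences need not equal the ratios. Probes had to be well above background in 1 channel or both on every array (27224 of 41174), and the brightest probe stood for a gene (19154 genes). Names were updated through RefSeq accessions (22951 probes matched). No source used here gives the genome build of the array design.

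The 4 ratios of a gene were turned into 4 prep values and tested with lmFit and eBayes (Benjamini-Hochberg adjusted p under 0.05). The procedure was tested on simulated data. All members are named, with every probe. Genes of the other lists are named where they were called with the largest differences (up to 4 per list) or are textbook partners of a member. The members and lists were chosen with earlier results of these data known. Alternatives changed the offset, background model, marked spots, normalization, intensity filter, probe rule, preps and arrays. The ratio of an array left out was filled in from those of the other arrays, so these fits are not independent checks.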

Additional observations from a re-analysis of the deposited data

Results flagged for a closer look

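Gzmb moved in opposite directions in the 2 in vitro-derived preps. Its log2 ratio to thymic RNA was above 0 on both arrays of prep 2 and below 0 on both arrays of prep 1, and prep 2 exceeded prep 1 by 1.52 on the log2 scale. This difference between preps was not tested, since each side is 1 prep and the arrays share RNA. Fitted with the in vitro prep 2 alone, Gzmb was 0.73 higher in in vitro-derived than in thymic cells, and fitted with prep 1 alone it was at -0.79.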

How the results depend on the processing

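Gzma, Srgn, Gzmk, Prf1, Nkg7 and Ctsw kept their direction and call under every alternative that could be run for them. Between 7 and 10 members were called. Gzmb, not called in the fit over all preps, changed sign when the background model took in all spots (0.12), when marked spots stayed in (0.12) and under median centring (0.28), and over the fits that left out a prep or array it ranged from -0.79 to 0.73, past the threshold in both directions without one in vitro prep. Those 2 fits leave a lone in vitro prep, assumed to vary like the thymic preps, whereas the in vitro preps themselves differ far more at Gzmb. The cause was not tested. Prep 2 minus prep 1 of Gzmb was 1.83 with an offset of 16, 1.22 for the model on all spots and 1.21 if marked spots stayed in. It was 2.24 with processed signals and 1.73 with median centring. Without an array it was 1.44 or 1.60, which are again the differences against each thymic prep. Over all genes 9975 were called, and leaving out a prep or array gave 5800 to 9995, the lowest without thymic prep 2 and 6067 without thymic prep 1, which leave 1 thymic prep assumed to vary like the others. Median centring called 13716 genes, 11539 higher and 2177 lower, against 5115 and 4860 with loess. With the processed signals 5991 were higher and 3908 lower. With the prep number as a replicate block 10275 genes and 9 members were called. The labels do not say that the numbers pair the preps (correlation of same-numbered deviations over genes 0.13). A filter on both channels left Gzmc and Gzmk out, so these 2 have no value there. Weak signals limit both genes, whose probes were not well above background in in vitro-derived RNA.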

Other observations

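Of 8 tested mast cell and myeloid markers 3 rose in in vitro-derived cells and 2 fell, with a median log2 difference of 0.11. With median centring 5 were higher and 1 lower, with a median of 0.37. Cpa3, the mast cell carboxypeptidase gene, had levels of 10.67 and 9.99 in the in vitro preps, against 7.37 and 7.40 in the thymic preps, and a log2 difference of 2.95 ± 0.17 (limma adjusted p = 0.00021). Its ratio was higher on the arrays of in vitro prep 1, opposite to Gzmb. Of 5 B cell markers 0 were higher and 1 was lower by the limma test, with a median log2 difference of -0.02 and 1 unadjusted p under 0.05. With median centring 2 were higher and 0 lower, with a median of -0.04. Of the 5 tested natural killer cell markers 2 were higher and 2 lower, with Klrd1 at -2.73. Over all 19154 genes 26.7% were called higher and 25.4% lower, against 11539 and 2177 genes with median centring.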
